A study of Homo sapiens with 36 samples.

Results

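The transcripts described here are expressed antisense RNAs of 2 human colorectal cancer lines, set beside the sense genes that they are named after. They were selected on their measured counts, as the rows of the mRNA count table whose symbol ends in -AS and a number and whose mean raw count over the 18 mRNA libraries was at least 20, and 1 further row that met this rule is not reported here. The rule kept 268 of 1397 antisense rows (19.2%), in a table of 60591 rows. Because the rule used the counts themselves, the levels below are a description of the chosen rows. A sense gene was found in the table for 260 of the 268 antisense members, 2 of them under an older symbol, and the sense genes numbered 257 because some share a gene. The last members inside the limit were HIF1A-AS3 and KIF9-AS1, both with a mean count of 20.44, and TMEM92-AS1 with 20.33. The first rows outside it were TOB1-AS1 with 19.94, LCMT1-AS2 with 19.67 and STXBP5-AS1 with 19.17.

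Caco-2 cells, which form an enterocyte-like layer when left confluent, had been differentiated for 21 days, whereas HT-29 cells were used without such a step, so that line and culture state cannot be told apart. In each line 3 libraries came from control cells, 3 from cells given 300 µM cobalt chloride (CoCl2) for 24 h and 3 from cells given 5 µM of an oxyquinoline derivative (OD, compound 4896-3212) for 24 h. CoCl2 and OD are both used as chemical stabilisers of the hypoxia-inducible factor HIF. DMSO, the solvent of OD, was in the control and OD media according to the labels, whereas the study's methods name it for the CoCl2 medium too, and this difference was not settled here. Nothing in the labels says whether replicates came from separate passages, so p-values measure the spread between these libraries only.

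Natural antisense transcripts are made from the DNA strand opposite another gene. Some start next to the promoter of that gene and run away from it (divergent), some cross its exons, and some start inside its introns. A few are known to act on the gene across from them through chromatin, splicing or RNA pairing, whereas for most no function is known, and their levels can follow the activity of a shared promoter. HIF, made of an oxygen-regulated α subunit and a constant β subunit, binds DNA at the core letters ACGTG or GCGTG and raises genes of glycolysis, iron handling and angiogenesis, and antisense RNAs at HIF1A itself have long been described in hypoxic cells.

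The antisense members were low in abundance. Their median mean count was 48.3, compared with 524.4 for the sense genes, 198 of the 268 had a mean count below 100 and 4 reached 1000 or more. In 97 members all 6 groups reached a mean of 20 counts, whereas 67 reached it in 1 line only (32 in Caco-2 and 35 in HT-29). By position in the GENCODE 44 annotation of GRCh38, which placed 265 of the members, 261 are annotated as long non-coding RNAs. Of the 257 pairs with both genes placed, 181 share exonic bases on opposite strands, 44 are divergent (start sites head to head within 2 kb, exons apart), 29 overlap only within introns or the gene body, and 3 do not overlap (IGFL2-AS1, FOXD2-AS1 and TMEM92-AS1). In 111 pairs the start sites lie head to head within 2 kb. The shared part was usually small: the median member had 6.55% of its exonic bases opposite an exon of any other gene, and 53 members had none. The libraries were made with a strand-preserving kit, but whether the counting used strand is not given in the sources used here, so that for exon-overlapping pairs reads of the antisense RNA and of its sense gene cannot be told apart with certainty.

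The DNA at 4 of the pairs described below is printed first. In 3 of them it is the short stretch between 2 annotated start sites that face in opposite directions. Counts per gene do not show which start was used, and no result below tests these bases. Capitals mark every ACGTG or GCGTG on either strand (read as CACGT or CACGC on the other). TMCC1-AS1 runs on the + strand of chr3:129893811-129918578 away from TMCC1, and the 99 bases between both starts are chr3:129893712-129893810. USP46-AS1 runs on the + strand of chr4:52659406-52661668 away from USP46, with 104 bases between the starts at chr4:52659302-52659405. SLC2A1-AS1 runs on the + strand of chr1:42959049-42996814 away from SLC2A1, with 155 bases between the starts at chr1:42958894-42959048. These 3 are given on the + strand of GRCh38, 5′ to 3′. HIF1A-AS3 lies on the - strand of chr14:61707298-61751163 across HIF1A, and its promoter window (250 bases before to 50 after its RefSeq start, chr14:61751048-61751347, - strand, GRCh38.p14) is given 5′ to 3′ on its own strand.
TMCC1-AS1: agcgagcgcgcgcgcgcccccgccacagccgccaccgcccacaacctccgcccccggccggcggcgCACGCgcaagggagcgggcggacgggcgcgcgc
USP46-AS1: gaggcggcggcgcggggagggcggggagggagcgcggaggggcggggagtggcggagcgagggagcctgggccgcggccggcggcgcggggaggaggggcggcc
SLC2A1-AS1: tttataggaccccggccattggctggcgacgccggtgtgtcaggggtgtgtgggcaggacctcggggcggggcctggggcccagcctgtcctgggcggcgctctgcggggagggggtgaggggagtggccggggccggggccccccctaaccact
HIF1A-AS3: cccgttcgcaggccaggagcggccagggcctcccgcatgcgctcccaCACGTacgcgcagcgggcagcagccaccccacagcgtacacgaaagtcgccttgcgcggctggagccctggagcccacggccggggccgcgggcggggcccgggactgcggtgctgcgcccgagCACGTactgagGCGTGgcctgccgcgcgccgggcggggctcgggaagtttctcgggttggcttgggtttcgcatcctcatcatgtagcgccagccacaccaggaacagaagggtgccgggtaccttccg
The TMCC1 stretch holds 1 match, the USP46 and SLC2A1 stretches hold 0 and the HIF1A-AS3 window holds 3.

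These core letters are common in promoters. RefSeq promoter windows of GRCh38.p14 were at hand for 208 of the 268 members, and 137 of them (65.9%) hold ACGTG or GCGTG on either strand, compared with 59.5% of 210 sense gene windows and 48.4% of all 27305 windows. The antisense windows are also richer in G and C, with a median of 64.3% against 58.3% for all. Taken alone, ACGTG stands in 30.8% of antisense windows and 21.6% of all, and GCGTG in 53.4% and 36.3%. The E-box CACGTG, which contains ACGTG, stands in 8.17% and 7.43%, and TGACNNNGC, the antioxidant response element core, in 13% and 13.6%. Among the 28 members with a window that fell in at least 3 of the 4 treatment comparisons 64.3% hold ACGTG or GCGTG, and among the 19 that only rose 47.4% do. By ACGTG alone the order was the other way, at 14.3% and 36.8%, CACGTG stood in 0% and 15.8%, and the median G and C content of these windows was 69.7% and 50.7%. A match is a description of letters and not a binding site.

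Library totals ran from 12925719 to 22332639 counts, and TMM scaling factors from 0.765 in HT-29 CoCl2 to 1.2 in HT-29 control. Epithelial markers (EPCAM, CDH1, KRT8, KRT18, VIL1 and CDX2) all had a mean of at least 1 CPM (counts scaled to the TMM-adjusted library total) in both lines, summing to 4645 to 7974 CPM in Caco-2 and 4804 to 6179 in HT-29. Enterocyte markers summed to 2698 to 4370 CPM in Caco-2 and 7.92 to 13.9 in HT-29. Markers of leukocytes summed to at most 0.939 CPM, of fibroblasts to at most 5.15 and of endothelium to at most 11.7. Of well-known HIF target genes that could be tested, 9 of 9 rose with CoCl2 in Caco-2 (median log2 change 3.34) and 7 of 9 with OD (2.7), while in HT-29 9 of 10 rose with CoCl2 (3.44) and 5 of 10 with OD (0.83).

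CoCl2 lowered antisense RNAs far more often than it raised them, in both lines. A member was called when the edgeR quasi-likelihood test gave an adjusted p (FDR) below 0.05 and the log2 fold change exceeded 1 in size. With CoCl2 in Caco-2, 101 of 254 tested members were called (39.8%, against 23.4% of all genes tested), of which 14 rose (9.13% of all genes rose) and 87 fell (14.2% of all genes fell), with a median log2 change of -0.60 against -0.03 over all genes. In HT-29, 145 of 251 were called (57.8%, against 41.3%), of which 20 rose (17.4% of all) and 125 fell (23.9% of all), with a median of -1.0 against -0.03. The sense genes did not share this tilt. In Caco-2 17 of 236 sense genes rose and 24 fell, with a median of 0.04, and in HT-29 43 of 232 rose and 41 fell, with a median of 0.11.

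OD gave a smaller response in the same direction. In Caco-2, 57 of 254 members were called (22.4%, against 11.7% of all genes), 8 of them higher (4.43% of all genes) and 49 lower (7.27%), with a median of -0.45 against -0.02. In HT-29, 51 of 251 were called (20.3%, against 17.1%), 15 higher (9.5%) and 36 lower (7.57%), with a median of -0.23 against 0.01. Here the sense genes gave 10 higher and 7 lower in Caco-2 (median 0.00), and 16 higher and 12 lower in HT-29 (median 0.02). The HT-29 excess of falls was not kept on the deposited log2 values, where limma with a pseudocount of 1 called 6 members higher and 3 lower, and with 0.1 called 10 and 9, over the 175 members listed there. In Caco-2 OD, the pseudocount of 1 gave 3 higher and 3 lower, and that of 0.1 gave 4 and 31, over 197 members. Each line's CoCl2 and OD comparisons share their control libraries.

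**Figure D1:**
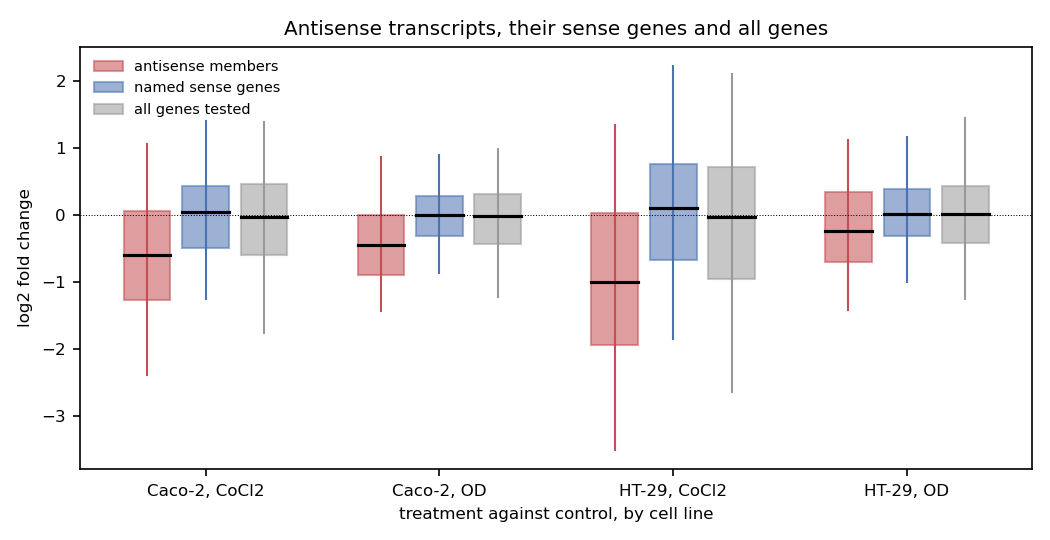
Log2 fold change against control (vertical axis) in the 4 treatment comparisons for the antisense members, the sense genes they name and all genes tested. Boxes span the quartiles, lines the 5th to the 95th percentile and black bars the median, which for the antisense members is -0.60, -0.45, -1.0 and -0.23 and for all genes lies between -0.03 and 0.01.

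The size of the shift depends on how libraries were scaled, but its direction relative to all genes did not. Without TMM factors the median of all genes itself moved to -0.35 (Caco-2 CoCl2), -0.18 (Caco-2 OD), -0.66 (HT-29 CoCl2) and -0.13 (HT-29 OD), and the members' medians to -0.92, -0.60, -1.63 and -0.37. The sense genes then stood at -0.28, -0.15, -0.52 and -0.12, all below zero, so that the sign of their median depends on the scaling. The members' share of all counts fell with both agents on that unscaled measure: it ran from 0.266 to 0.293% in the Caco-2 control libraries, from 0.161 to 0.171% in those given CoCl2 and from 0.192 to 0.204% in those given OD. The HT-29 ranges were 0.252 to 0.263% (control), 0.133 to 0.135% (CoCl2) and 0.228 to 0.241% (OD), and in neither line did the 3 groups overlap. On TMM-scaled counts the members summed to 2509 ± 96.7, 1844 ± 42.6 and 1991 ± 19.8 CPM in Caco-2 control, CoCl2 and OD (mean ± SD). In HT-29 the sums were 2157 ± 40.4, 1739 ± 26 and 2138 ± 43.3, so that OD stayed close to control there.

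Low abundance goes with part of this pattern. Among protein-coding genes with a mean count between 20 and 100, the range that holds most members, CoCl2 lowered 26.3% and raised 9.59% in Caco-2, and lowered 39.9% and raised 14% in HT-29. Antisense members in that range were lowered in 36.6% and raised in 3.76% of cases in Caco-2, and lowered in 51.6% and raised in 7.61% in HT-29. Members with a mean count of 100 or more fell in 27.9% and 44.8% and rose in 10.3% and 8.96%, compared with 9.64% and 18.5% falling among all protein-coding genes of at least 20 counts. Other long non-coding RNAs of at least 20 counts fell in 24.2% and 43.4% and rose in 13.8% and 13.2%. With OD in HT-29 the low-count protein-coding genes went the other way, with 16% higher and 11.2% lower, whereas the low-count members had 5.43% higher and 17.4% lower. Other long non-coding RNAs there had 11.1% higher and 15.4% lower, and members of 100 or more counts 7.46% and 5.97%. With OD in Caco-2 low-count members had 2.15% higher and 22.6% lower, and low-count protein-coding genes 5.5% and 12.7%. Other long non-coding RNAs had 5.52% and 14.7% there, and members of 100 or more counts 5.88% and 10.3%. These classes were set after the data had been seen and their differences were not tested.

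**Figure D2:**
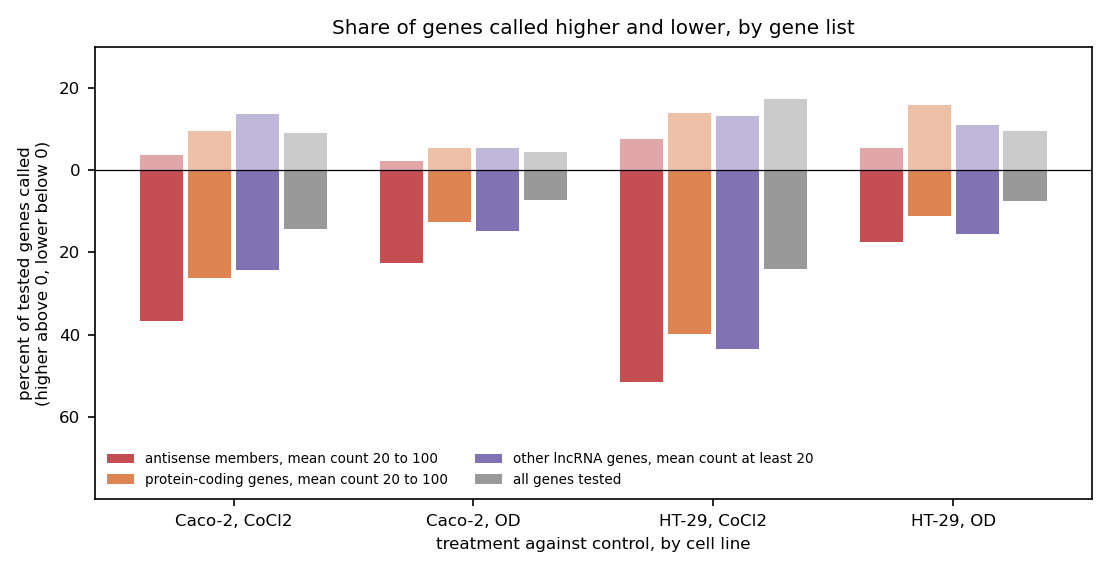
Percent of tested genes called higher (up) or lower (down) in each treatment comparison, for antisense members and protein-coding genes with mean counts of 20 to 100, other long non-coding RNAs and all genes tested. In HT-29 CoCl2 51.6% of the low-count members were lower, against 39.9% of low-count protein-coding genes and 23.9% of all genes.

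Another set of antisense RNAs named for their position, the divergent transcripts whose symbols end in -DT, was counted in the same way. The split between the sets is partly one of naming. The RefSeq symbols of TMCC1-AS1, USP46-AS1 and SLC2A1-AS1 are TMCC1-DT, USP46-DT and SLC2A1-DT, and 22 members were placed in GENCODE 44 under another symbol. Of 38 tested in Caco-2, CoCl2 raised 2 and lowered 15 and OD raised 1 and lowered 9, and in HT-29 CoCl2 raised 3 and lowered 20 and OD raised 4 and lowered 5. In Caco-2, CoCl2 changed 44.7% of them (23.4% of all genes) and OD 26.3% (11.7%), and for HT-29 the shares came to 60.5% (41.3%) and 23.7% (17.1%). Their median log2 changes were -0.69, -0.55 and -1.08 in the first 3 of these comparisons, and 0.13 with OD in HT-29, where the members' median was -0.23. Among the members that are themselves divergent, none of 44 rose and 17 fell with CoCl2 in Caco-2 by the edgeR call, and none rose and 16 fell with OD. In HT-29 1 of 41 rose and 23 fell with CoCl2, and 1 rose and 8 fell with OD. As shares of those tested, the calls in divergent members came to 38.6% with CoCl2 and 36.4% with OD for Caco-2, then 58.5% and 22% for HT-29, the last being near the 17.1% of all genes.

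Over the 4 treatment comparisons, 181 of the 268 members were called at least once and 87 in none, 42 fell in 3 or more and 5 rose in 3 or more, and 5 moved in both directions. Of 17903 genes tested in either line, 51.7% were called at least once (67.5% of the members), 3.39% fell in 3 or more (15.7%) and 2.55% rose in 3 or more (1.87%). The CoCl2 and OD comparisons of a line share their controls, so that a gene called in one is not independent of its call in the other. Altogether 8 members fell in all 4, namely ELFN1-AS1, USP46-AS1, SGMS1-AS1, ZBED3-AS1, TRAM2-AS1, STX18-AS1, TMEM44-AS1 and FAM198B-AS1, and 1 rose in all 4, SLC7A11-AS1, compared with 0.849% and 0.637% of all genes (2.99% and 0.373% of the members). Since 17 members were tested in Caco-2 only and 14 in HT-29 only, 237 could have reached all 4.

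ELFN1-AS1 lies inside ELFN1, which encodes a leucine-rich repeat protein of synapses, on the opposite strand of chromosome 7 and without exon overlap. In the Caco-2 libraries it was at 3.38, 3.56 and 3.18 CPM in controls, 0.167, 0.291 and 0.27 with CoCl2 and 0.74, 1.62 and 1.41 with OD. In HT-29 it was at 5.94, 6.01 and 5.07 in controls, 0.0747, 0 and 0.165 with CoCl2 and 2.02, 3.08 and 2.98 with OD. The 3 groups did not overlap in either line, and CoCl2 was lowest in both. Caco-2 gave log2 changes of -3.72 ± 0.39 for CoCl2 (SE; FDR 1.32e-08) and -1.41 ± 0.29 for OD (FDR 0.000312). For OD in HT-29 the change was -1.07 ± 0.17 (FDR 3.73e-06), a call that is lost without HT-29 OD replicate 1 (-0.89). The HT-29 CoCl2 libraries held 3 counts in all against 337 in controls, a level 74.3 times lower with a 95% counting interval of 25.2 to 362 (exact binomial). ELFN1 itself fell in 3 of the comparisons, by 2.00, 1.45 and 4.05 on the log2 scale with Caco-2 CoCl2, Caco-2 OD and HT-29 CoCl2, and was at -0.52 with HT-29 OD.

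USP46-AS1, the divergent partner of the deubiquitinase gene USP46 whose intervening bases are printed above, was at 3.14, 3.29 and 3.88 CPM in Caco-2 controls, 0.25, 0.218 and 0.433 with CoCl2 and 0.874, 1.5 and 1.06 with OD. In HT-29 it was at 2, 2.57 and 1.84 in controls, 0.0747, 0.0691 and 0.0823 with CoCl2, which is 1 count in each library, and 0.569, 0.64 and 0.798 with OD. Control, OD and CoCl2 followed in that order without overlap in both lines. In Caco-2 this came to log2 changes of -3.41 ± 0.37 under CoCl2 (FDR 1.97e-08) and -1.56 ± 0.29 under OD (FDR 9.52e-05). The OD change in HT-29 was -1.65 ± 0.26 (FDR 2.89e-06). The HT-29 CoCl2 level was 28 times lower than control (95% counting interval 9.37 to 138). USP46 fell with HT-29 CoCl2 only (-1.38 ± 0.10), and its other 3 values were -0.54, -0.30 and -0.23.

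SGMS1-AS1 starts near the promoter of SGMS1, a sphingomyelin synthase gene, and shares 12% of its exonic bases with exons on the other strand. Its Caco-2 levels were 12.9, 13 and 12.7 CPM in controls, 2.17, 1.31 and 1.78 with CoCl2 and 6.52, 5.4 and 5.72 with OD. In HT-29 they were 6.07, 6.29 and 5.71, then 0.224, 0.415 and 0, and 1.5, 1.86 and 1.54. Again OD stood between control and CoCl2 without overlap, with log2 changes in Caco-2 of -2.88 ± 0.18 for CoCl2 and -1.13 ± 0.15 for OD. The HT-29 values were -4.69 ± 0.31 and -1.88 ± 0.19 (largest FDR of the 4 1.32e-06). SGMS1 stayed within 0.28 of control on the log2 scale in all 4 comparisons, at -0.28, 0.18, 0.03 and -0.14, and none was called.

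In the remaining 5 members of this set, some sense genes fell as well and others were not called. STX18-AS1, opposite the gene of an endoplasmic reticulum SNARE, changed by -1.27, -1.25, -2.89 and -1.36 (Caco-2 CoCl2, Caco-2 OD, HT-29 CoCl2, HT-29 OD), and TRAM2-AS1, opposite a gene of the translocon, by -1.06, -1.02, -2.07 and -1.08. TMEM44-AS1 changed by -2.65, -1.02, -2.39 and -1.26. STX18, TRAM2 and TMEM44, sense genes of these 3, were called in none of the 4. ZBED3-AS1 changed by -1.12, -1.11, -2.33 and -1.95, and ZBED3, which encodes a zinc-finger protein, fell with it in 3 of 4 (-1.23, -1.86 and -1.53, with -0.31 for OD in Caco-2). FAM198B-AS1 changed by -2.14, -1.46, -2.42 and -1.14, and GASK1B, its sense gene under the present symbol, fell with CoCl2 in both lines (-1.09 and -1.82). Values near the limit of 1 were fragile: leaving out 1 library took ZBED3-AS1 (-0.99 and -0.85), TRAM2-AS1 (-0.90 to -0.98) and TMEM44-AS1 (-0.83 and -0.94) inside it in comparisons with values from -1.02 to -1.12.

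Further strong falls were seen in members with and without a called change in the sense gene. TAPT1-AS1 was at 2.79, 3.02 and 2.22 CPM in Caco-2 controls, 0.333, 0.291 and 0.0541 with CoCl2 and 3.5, 2.82 and 3.18 with OD, so that CoCl2 but not OD lay apart from control. Its Caco-2 log2 changes were -3.66 ± 0.42 for CoCl2 and 0.24 ± 0.26 for OD, those in HT-29 -3.47 ± 0.33 and -1.28 ± 0.21, while TAPT1 was called in none. FBXL19-AS1, across from an F-box ubiquitin ligase gene, fell from 8.79, 7.91 and 6.3 CPM to 0.75, 0.727 and 1.03 with CoCl2 in Caco-2 (-3.16 ± 0.24) and by 2.78 ± 0.17 on the log2 scale in HT-29. CYMP-AS1, opposite the chymosin pseudogene, fell in Caco-2 from 7.97, 8.52 and 8.24 CPM to 0.667, 0.654 and 0.865 with CoCl2 (-3.46 ± 0.26) and to 1.28, 1.86 and 2.54 with OD (-2.12 ± 0.22), and CYMP itself fell there with both (-2.41 and -2.36). NINJ2-AS1 was next among the falls with OD there, at 11.6, 11.7 and 10.6 CPM in controls against 2.82, 2.94 and 2.4 (-2.05 ± 0.17), and fell with CoCl2 in both lines (-1.76 and -3.28), while NINJ2 fell with OD in Caco-2 (-1.26) and was called in no other of these comparisons. VPS9D1-AS1 (-1.96 ± 0.31), EXOC3-AS1 (-1.72 ± 0.27) and MIR1-1HG-AS1 (-1.64 ± 0.23) followed with OD in Caco-2. EXOC3-AS1 starts 15 bases from EXOC3, an exocyst subunit gene. In HT-29 the largest falls with OD were those of SSTR5-AS1 (-2.08 ± 0.19), HOXB-AS4 (-2.06 ± 0.11), ZBED3-AS1, SGMS1-AS1 and PAN3-AS1 (-1.86 ± 0.20), and SSTR5, a somatostatin receptor gene, fell there too (-1.68).

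In HT-29 CoCl2 8 of the 145 called members had no more than 3 counts in any treated library, so their sizes rest on counting. SSTR5-AS1, opposite the somatostatin receptor gene SSTR5, had 5 counts against 383 in controls (50.7 times lower, 21.5 to 157), and SSTR5 fell beside it (-4.80 ± 0.48). RNF157-AS1 had 4 counts against 135 (22.3 times lower, 8.52 to 83.1) and MMP25-AS1 7 against 159 (15 times lower, 7.13 to 38). For HOXC-AS2, MELTF-AS1 and KCNMB2-AS1 the ratios were 8.77, 5.13 and 4.41, with lower bounds of 3.23, 1.81 and 1.86.

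Far fewer members rose, and SLC7A11-AS1 alone rose in all 4 comparisons. SLC7A11 encodes xCT, the light chain of the cystine/glutamate exchanger that feeds glutathione synthesis, and the antisense RNA (chr4:138057464-138178177, + strand) crosses its exons with 19.9% of its exonic bases. It was at 0.407, 0.402 and 0.208 CPM in Caco-2 controls, 3.33, 3.71 and 4.06 with CoCl2 and 1.21, 0.661 and 0.776 with OD. In HT-29 it was at 7.81, 7.05 and 5.82, then 55.3, 70.3 and 56.9, and 17.3, 13.3 and 12.2. No groups overlapped, and CoCl2 was highest in both lines. In Caco-2 the log2 change was 3.41 ± 0.36 for CoCl2 (FDR 1.21e-08) and 1.33 ± 0.44 for OD (FDR 0.0146). In HT-29 it was 3.17 ± 0.11 for CoCl2 (FDR 2.23e-19) and 1.08 ± 0.13 for OD (FDR 6.83e-08). Both OD calls are lost without control replicate 3 or OD replicate 1 of that line, in Caco-2 through the FDR (0.0652 and 0.0818) and in HT-29 through the size (0.95 and 0.91), and the HT-29 OD call also without TMM factors (0.95).

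SLC7A11 did not simply mirror its antisense RNA. Its levels in Caco-2 were 18.6, 15.4 and 19.2 CPM in controls, 44.7, 59.4 and 58.8 with CoCl2 and 24.8, 36.3 and 31.9 with OD, and its log2 changes 1.62 (called) and 0.81. In HT-29 it stood at 391, 420 and 455, then 828, 879 and 790, and 251, 227 and 219, with log2 changes of 0.98 and -0.86. With OD in HT-29 the antisense RNA was thus above and the sense gene below control in every library, although the sense value did not reach the fold limit.

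HIF1A-AS3 crosses HIF1A, the gene of the oxygen-regulated HIF subunit, with 5.93% of its exonic bases opposite an exon. HIF1A-AS3 was near its floor in controls, at 0.291, 0.201 and 0.0692 CPM for Caco-2 against 0.129, 0.164 and 0.338 for HT-29. Its mean count of 20.44, from 1 to 48 counts per library, met the limit of 20 only through the treated groups where it was high. The rise is therefore tied to the rule that chose this member, and the FDRs below are no separate support for it. CoCl2 brought HIF1A-AS3 to 1.83, 2.25 and 1.89 CPM in the Caco-2 libraries and to 3.21, 2.56 and 2.63 in those of HT-29, and OD to 3.23, 1.8 and 3.25 in Caco-2 but 0.569, 0.233 and 0.319 in HT-29. The treated groups lay above control without overlap except for OD in HT-29, which overlapped it. In the order Caco-2 CoCl2, Caco-2 OD, HT-29 CoCl2 and HT-29 OD, log2 changes were 3.31 ± 0.46 (FDR 9.97e-07), 3.77 ± 0.44 (FDR 1.45e-07), 3.56 ± 0.34 (FDR 2.39e-10) and 0.70 ± 0.50 (FDR 0.213). HIF1A mRNA, in the same order, changed by 0.40, 0.07, 1.40 (called) and 0.65.

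IGFL2-AS1 showed the largest rise, in HT-29 alone. Despite its name it does not overlap IGFL2, a gene of the insulin-like growth factor-like family, and lies 27731 bases away on chromosome 19. In HT-29 it went from 4.13, 2.57 and 3.34 CPM to 240, 212 and 220 under CoCl2, and reached 24.4, 18.7 and 21.6 under OD. In Caco-2 all 9 libraries lay between 2.08 and 4.16 CPM. The HT-29 log2 changes were 6.07 ± 0.10 (FDR 6.47e-27), or 67.4-fold, and 2.71 ± 0.12, compared with 0.62 ± 0.22 and 0.43 ± 0.23 in Caco-2, and the line difference itself was 5.34 ± 0.26 for CoCl2. IGFL2 rose in HT-29 with the reverse order of agents (1.10 with CoCl2 and 2.52 with OD).

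Several other members rose in HT-29 with both agents. HLA-F-AS1, opposite a non-classical MHC class I gene, went from 1.74, 1.8 and 1.99 CPM to 19.9, 16.5 and 15.8 with CoCl2 and 19.1, 14.4 and 16.5 with OD, so that both agents brought it to a like level (3.22 ± 0.15 and 3.16 ± 0.14). HLA-F rose there too (1.43 and 2.62), and in Caco-2 HLA-F-AS1 rose with CoCl2 (1.27) while HLA-F was at -0.93. RUSC1-AS1 went from 9.36, 7.66 and 8.26 CPM to 45, 53.8 and 48 with CoCl2 and 55.9, 42.6 and 41.3 with OD (2.55 ± 0.11 and 2.48 ± 0.11), whereas RUSC1 was at -0.05 and 0.28. IDI2-AS1 rose by 3.82 ± 0.16 and 2.98 ± 0.17 on the log2 scale, and IDI2 was not tested. SLCO4A1-AS1 rose by 2.36 and 1.41, next to SLCO4A1, an organic anion transporter gene called higher in all 4 comparisons (1.36, 1.42, 2.68 and 1.75). TRIM31-AS1, at a gene of a ubiquitin ligase, rose by 1.03 and 1.80, the CoCl2 call being lost without TMM factors (0.40). SLCO4A1-AS1 and TRIM31-AS1 were too low to test in Caco-2, so they met the count limit through HT-29, treated groups included. Their rises are thus partly tied to the rule that chose them. FAM13A-AS1 rose with CoCl2 in both lines (1.25 and 2.98), as did FAM13A (2.51 and 2.63). With OD in HT-29, however, FAM13A-AS1 stayed inside the fold limit (0.94) and FAM13A was at -0.49.

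In Caco-2 further members rose. TMEM92-AS1 rose by 2.25 ± 0.40 with CoCl2 and 1.16 ± 0.44 with OD, the OD call being lost in 5 of the 6 fits that leave out 1 library. In HT-29 it was called lower in 1 comparison. Its mean count of 20.33, from 6 to 55 counts per library, lay just above the limit of 20. The rise is therefore tied to the rule that chose TMEM92-AS1, and its calls are no separate support for it. PSMD6-AS2, at a proteasome subunit gene, rose with OD (1.18 ± 0.22) but not with CoCl2 (-0.37). It was called higher in 2 of the 4 treatment comparisons, the other being in HT-29.

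**Figure D3:**
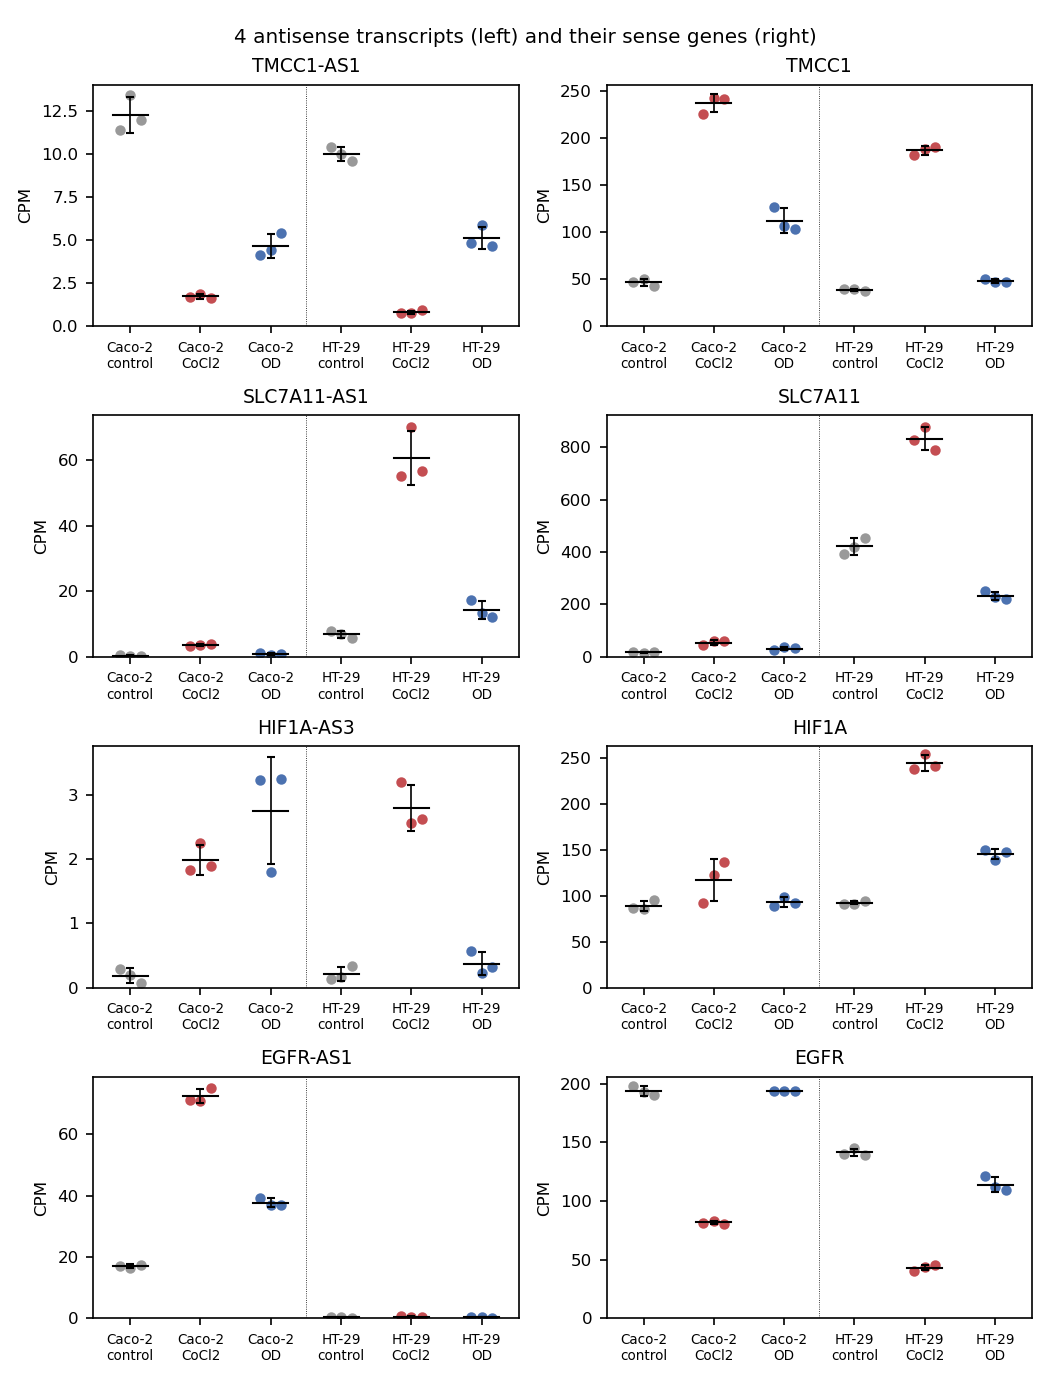
CPM in each library (points) with group mean and SD (bars) for 4 antisense members and their sense genes, by line and treatment. TMCC1-AS1 falls from 11.4 to 13.4 CPM to at most 1.89 with CoCl2 in Caco-2 while TMCC1 rises from at most 49.8 to at least 226, and EGFR-AS1 rises where EGFR falls.

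When the members are set beside their sense genes, most pairs with both genes called moved in the same direction. In Caco-2 CoCl2, Caco-2 OD, HT-29 CoCl2 and HT-29 OD, the antisense gene alone was called in 64, 46, 75 and 33 pairs. The sense gene alone was called in 15, 8, 27 and 18. This gap goes with the overall call shares, at 39.8%, 22.4%, 57.8% and 20.3% of members. The sense genes had 17.4%, 7.2%, 36.2% and 12.1%, and all genes 23.4%, 11.7%, 41.3% and 17.1%. Whether pairs were called together more often than these shares give was not tested. With CoCl2 in Caco-2, 25 of 231 tested pairs had both genes called, 4 both higher, 17 both lower, 3 with the antisense lower and the sense higher, and 1 the reverse. In HT-29, 54 of 225 pairs had both called, 9 both higher, 32 both lower, 12 with the antisense lower and the sense higher, and 1 the reverse. With OD the counts were 8 pairs in Caco-2 (2 both higher, 5 both lower and 1 opposite) and 10 in HT-29 (8 both higher and 2 both lower). Across pairs the log2 changes of antisense and sense genes had a Pearson r of 0.39, 0.39, 0.42 and 0.35 in the order used above. These r are descriptions across genes, which share libraries and in overlapping pairs may share reads. In the divergent pairs, whose exons lie apart, r was 0.27 and 0.30 in Caco-2 (43 pairs) and 0.05 for each agent in HT-29 (40 pairs).

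**Figure D4:**
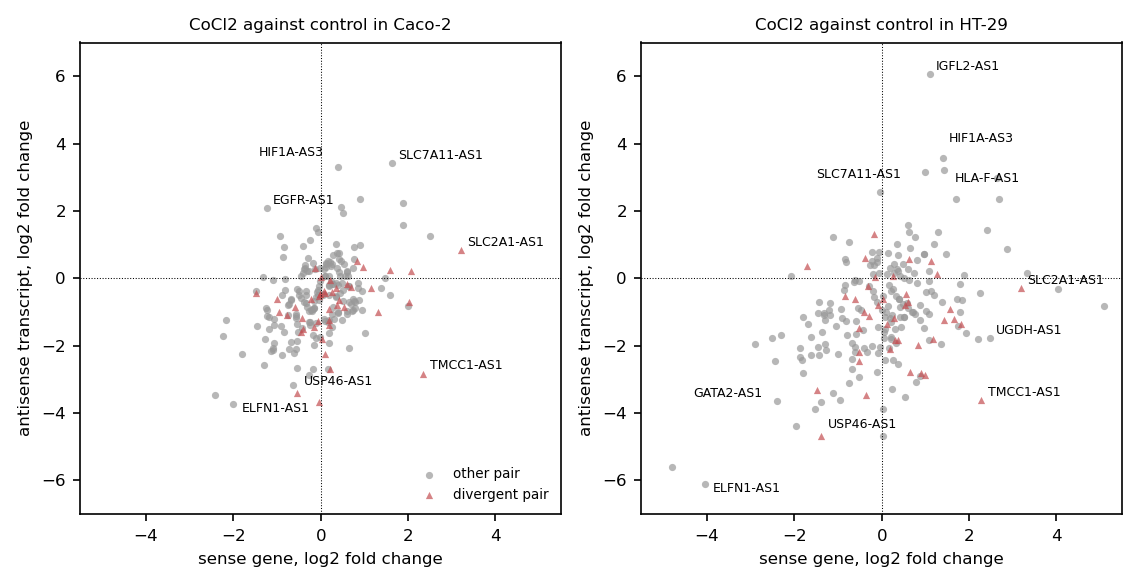
Log2 change with CoCl2 of the sense gene against that of its antisense member, 1 point per pair, in Caco-2 (231 pairs) and HT-29 (225 pairs), with divergent pairs as triangles. The cloud lies to the low side on the antisense axis, and TMCC1-AS1 sits far into the corner of low antisense and high sense in both lines.

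TMCC1-AS1 and TMCC1 gave the clearest opposite movement. TMCC1 encodes a coiled-coil membrane protein of the endoplasmic reticulum. The annotated starts of both genes flank the 99 bases printed above, and the genes share no exonic bases in this annotation. Which starts were in use was not tested. TMCC1-AS1 was at 11.4, 13.4 and 12 CPM in Caco-2 controls, 1.67, 1.89 and 1.62 with CoCl2 and 4.1, 4.44 and 5.43 with OD. TMCC1 was at 46.9, 49.8 and 42.5, then 226, 243 and 242, and 127, 106 and 103. In HT-29 the antisense RNA was at 10.4, 10 and 9.57, then 0.747, 0.761 and 0.905, and 4.81, 5.88 and 4.68. All groups were apart, with the antisense RNA lowest and the sense gene highest under CoCl2.

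In Caco-2, TMCC1-AS1 changed by -2.83 ± 0.19 (FDR 2.75e-12) and -1.40 ± 0.16 (FDR 9.91e-08), which is 7.1 and 2.63 times lower, and TMCC1 by 2.35 ± 0.09 and 1.27 ± 0.09. In HT-29, TMCC1-AS1 changed by -3.62 ± 0.19 with CoCl2 (FDR 5.07e-16), 12.3 times lower, and TMCC1 by 2.28 ± 0.05, whereas OD gave -0.96 ± 0.12 and 0.32 ± 0.05, neither past the fold limit. Per kilobase of transcript in the deposited values, TMCC1-AS1 was at 28 ± 2.06% (SD, n = 3) of the level of TMCC1 in Caco-2 controls, 0.769 ± 0.0571% with CoCl2 and 4.47 ± 1.07% with OD. The same ratios for HT-29 were 27.3 ± 0.643%, 0.453 ± 0.0414% and 11.3 ± 1.78%. The ratios of the lines at rest were thus close, and with OD the ratio was lower in Caco-2 than in HT-29.

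EGFR-AS1 gave the reverse, rising where EGFR fell, and only in Caco-2 was it expressed well enough to test by line. It lies on the - strand of chr7:55179750-55188977 inside EGFR, the receptor of epidermal growth factor, with 6.53% of its exonic bases opposite an exon. EGFR-AS1 was at 17.1, 16.4 and 17.5 CPM in controls, 71.2, 70.9 and 75 with CoCl2 and 39.3, 36.8 and 37 with OD. EGFR was at 198, 193 and 190, then 81.5, 83.1 and 80.8, and 194 in each of the 3 OD libraries. The antisense groups did not overlap, and of the sense groups only CoCl2 was apart. This gave log2 changes of 2.09 ± 0.09 (FDR 4.61e-16) and 1.15 ± 0.09 (FDR 1.86e-10) for EGFR-AS1, and -1.24 ± 0.07 and 0.00 for EGFR. Per kilobase, EGFR-AS1 stood at 39.1 ± 1.69% of EGFR in controls, 395 ± 17.3% with CoCl2 and 86.7 ± 3.34% with OD. None of the 9 HT-29 libraries exceeded 0.747 CPM.

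The other opposite pairs combined a falling antisense RNA with a rising sense gene, apart from ABHD11-AS1. RTCA-AS1, which starts 34 bases from RTCA (an RNA 3′-phosphate cyclase gene), and LMO7-AS1, at the gene of a LIM protein of cell junctions, did so with CoCl2 in both lines. RTCA-AS1 changed by -1.01 and -1.23 and RTCA by 1.31 and 1.42, and LMO7-AS1 by -1.61 and -1.83 and LMO7 by 1.01 and 1.09 (Caco-2, then HT-29). The Caco-2 call of RTCA-AS1 is lost without CoCl2 replicate 2 or control replicate 3 (-0.90 in each). In HT-29 CoCl2, UGDH-AS1 fell by 1.77 on the log2 scale while UGDH, which makes UDP-glucuronate, rose by 2.48. SLC25A25-AS1, one of the more abundant members, went from 39.5, 42.3 and 41.4 CPM to 11, 13 and 11 (-1.81 ± 0.08), while SLC25A25, a mitochondrial ATP-Mg/phosphate carrier gene, rose by 2.21. ZEB1-AS1 (-1.61) and ZEB1 (1.94), which encodes a repressor of epithelial genes, STAM-AS1 (-1.36) and STAM (1.82), and MORF4L2-AS1 (-1.43) and MORF4L2 (1.75) behaved alike. So did ZNF460-AS1 (-1.22 and 1.66), KCTD21-AS1 (-1.96 and 1.35), ATXN1-AS1 (-1.80 and 1.18) and PTOV1-AS1 (-1.06 and 1.09). ABHD11-AS1 rose by 1.23 and ABHD11 fell by 1.11 on the log2 scale.

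SLC2A1-AS1 is the divergent partner of SLC2A1, the glucose transporter GLUT1 gene and a textbook HIF target, and moved little beside it. It was at 1.34, 1.61 and 1.45 CPM in Caco-2 controls, 3.17, 2.18 and 2.54 with CoCl2 and 3.23, 2.4 and 2.05 with OD. In HT-29 it was at 3.68, 4.43 and 3.79, then 3.14, 2.9 and 3.7, and 5.28, 5.41 and 4.42. In Caco-2 both treated groups lay above control, and in HT-29 both overlapped it. No log2 change passed the limit: 0.83 ± 0.28 (FDR 0.0108), 0.80 ± 0.27 (FDR 0.0175), -0.29 ± 0.17 (FDR 0.102) and 0.34 ± 0.14 (FDR 0.0341). SLC2A1 changed by 3.20, 2.75 and 3.18, all called, and by 0.42 with OD in HT-29.

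Where a sense gene changed by more than 2 on the log2 scale, its antisense member often did not follow. SDCBP2 rose by 5.08 and 4.05 in HT-29 while SDCBP2-AS1 was at -0.82 and -0.91. STARD4, a cholesterol transport gene, rose by 2.87 and 2.08 with STARD4-AS1 at 0.86 and -0.01. VLDLR, a lipoprotein receptor gene, rose by 2.24 with CoCl2 in HT-29 with VLDLR-AS1 at -0.43, and TM4SF1 rose by 2.07 with CoCl2 in Caco-2 with TM4SF1-AS1 at 0.21. SH3BP5 rose by 3.32 and 2.19 in HT-29, where SH3BP5-AS1 was at 0.15 and -0.81, and CBR3, a carbonyl reductase gene, rose by 4.04 with CoCl2 there with CBR3-AS1 at -0.32.

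Other pairs with a large sense change fell together. C1RL-AS1 fell by 1.23 and 1.94 on the log2 scale with CoCl2 (Caco-2, then HT-29) and C1RL by 2.16 and 2.91, CKMT2-AS1 by 1.71 and 1.69 and CKMT2, a creatine kinase gene, by 2.24 and 2.31, and CCDC18-AS1 by 1.39 and 2.47 and CCDC18 by 1.08 and 2.44. FOXD2-AS1, 3403 bases from FOXD2, fell with CoCl2 in HT-29 (-1.77, FOXD2 -2.51) but was at 0.03 in Caco-2, where FOXD2 fell (-1.32). HPN-AS1 rose with CoCl2 in Caco-2 (1.48) beside HPN at -0.11.

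Set directly against each other, CoCl2 left antisense levels lower than OD did, above all in HT-29. In HT-29 108 members were called (29.9% of all genes), 10 higher with CoCl2 (10.8% of all) and 98 lower (19.2%), with a median log2 difference of -0.73. In Caco-2 47 were called (11.7% of all genes), 7 higher (5.21%) and 40 lower (6.44%), with a median of -0.08. Low-count genes of other kinds did much the same in HT-29. There 38.6% of members with mean counts of 20 to 100 were lower (median -0.77), against 38% of such protein-coding genes (median -0.66). Other long non-coding RNAs of at least 20 counts were lower in 34.2%. The same 3 shares in Caco-2 were 17.2%, 12.5% and 10.1%. The agents were given at doses of a different kind and were compared at 24 h only. MMP25-AS1 was the most different in HT-29 apart from ELFN1-AS1, at 0.224, 0.207 and 0.0823 CPM with CoCl2 and 3.62, 3.55 and 3.25 with OD (-4.26 ± 0.37), and ADIRF-AS1 was at -3.44 ± 0.36. In Caco-2, TAPT1-AS1 (-3.89 ± 0.41), FBXL19-AS1 (-2.27 ± 0.26) and FABP6-AS1 (-2.22 ± 0.27) were among the lowest. Higher with CoCl2 were SLC7A11-AS1 in both lines (2.07 and 2.09), PITRM1-AS1 (2.06 ± 0.35) and PKP4-AS1 (1.72 ± 0.34) in Caco-2, and IGFL2-AS1 (3.37 ± 0.07) and HIF1A-AS3 (2.86 ± 0.31) in HT-29. Pairs with opposite differences in HT-29 included PAN3-AS1 (-1.0, PAN3 1.06), MAP3K14-AS1 (-1.07, MAP3K14 1.10), LOXL1-AS1 (-1.14, LOXL1 1.06) and IGFL2-AS1 (IGFL2 -1.42).

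The response of the members to each agent differed between the lines. In a fit over all 18 libraries, the CoCl2 response of 94 of 268 members differed (21.6% of all genes did), 23 being more positive in HT-29 (7.79% of all) and 71 more negative (13.8%), with a median difference of -0.39 against -0.13 over all genes. For OD, 62 differed (15.2% of all), 46 more positive in HT-29 (8.96%) and 16 more negative (6.24%), with a median of 0.18. This OD tilt was not particular to the members. Of members with mean counts of 20 to 100, 15.7% were more positive and 5.56% more negative, against 17.1% and 8.11% of such protein-coding genes. Other long non-coding RNAs of at least 20 counts had 17% and 10.1%. With CoCl2 the more negative shares were 25.8%, 20.9% and 28.8% in that order. Differences between these classes were not tested. The CoCl2 median depends on scaling, at -0.28 with DESeq2 size factors and -0.59 without TMM factors. Members with few counts in 1 line weigh in these numbers.

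LHFPL3-AS2 moved in opposite directions, from 10.7, 12.7 and 11.5 CPM to 23, 27.6 and 26.1 (CoCl2) or 42.4, 35.9 and 32.5 (OD) in Caco-2, but from 5.42, 5.19 and 6.27 to 1.42, 1.45 and 0.988 and to 2.12, 2.27 and 1.76 in HT-29. All 4 were called, with log2 changes of 1.14 (CoCl2) and 1.67 (OD) for Caco-2 against -2.12 and -1.47 for HT-29, and the Caco-2 CoCl2 call is lost without TMM factors (0.82). GATA2-AS1, beside the gene of the transcription factor GATA2, fell in HT-29 from 40.3, 37.8 and 36.6 CPM to 3.21, 2.9 and 3.05 under CoCl2 and to 13.9, 15.2 and 13.6 under OD (-3.64 ± 0.10 and -1.43 ± 0.07). It was at -0.71 and 0.72 in Caco-2, and GATA2 was at 0.79 and 1.05 there, against -2.40 and -0.77 for HT-29, so antisense and sense had the same sign in 3 of the 4. PROX1-AS1, beside the homeobox gene PROX1, rose with OD in HT-29 (1.32 ± 0.14), as did PROX1 (1.80), and fell with OD in Caco-2 (-1.60 ± 0.51) at levels of at most 1.21 CPM. SLC7A11-AS1 did not differ by test in its response between lines (-0.36 ± 0.41 for CoCl2 and -0.27 ± 0.47 for OD), although its control level was 4.36 ± 0.28 log2 units higher in HT-29.

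At rest, 130 of the 268 members differed between the lines (48.5%), near the 45.8% of all genes. Of these members 57 were higher in HT-29 (21.3%, against 21.6% of all) and 73 lower (27.2%, against 24.2%), with a median of -0.24. Among protein-coding genes with mean counts of 20 to 100, 25.1% were higher and 38.2% lower. Of the 67 members that reached the count limit in 1 line only, 61 differed, which follows from that split, and of the other 201, 69 did. Across 244 pairs the line difference of antisense and sense genes had a Pearson r of 0.74, higher than in any treatment comparison above. DLX6-AS1, beside a homeobox gene, was at 8.21, 8.59 and 8.79 CPM in Caco-2 controls, ZNF528-AS1 at 6.29, 7.45 and 4.71, and MIR1-1HG-AS1 at 5.59, 4.83 and 4.98, and all had 0 counts in the 9 HT-29 libraries, where 3 counts over the controls would be 0.0496 CPM. NR2F1-AS1, beside the gene of an orphan nuclear receptor, was the reverse, at 5.94, 6.56 and 6.53 CPM in HT-29 controls and 0 counts in all Caco-2 libraries (3 counts would be 0.0643 CPM). HOXB-AS3 was at 43.8, 44.2 and 43.2 CPM in HT-29 controls and at most 0.277 in Caco-2. Opposite to their sense genes at rest were TMEM92-AS1 (1.84, TMEM92 -1.98), SEPSECS-AS1 (-1.49, SEPSECS 1.31) and FABP6-AS1 (-6.31, FABP6 1.09).

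Levels per length could be compared for members in the authors' expression table, which lists 197 of them for Caco-2 and 175 for HT-29. The median member was at 1.44 RPKM in Caco-2 controls, 0.836 with CoCl2 and 1.02 with OD, and at 1.23, 0.784 and 1.2 in HT-29. As a share of the sense gene's RPKM in the same libraries, the median was 26.5%, 15% and 17.7% over 175 Caco-2 pairs and 17.3%, 9.34% and 15% over 149 HT-29 pairs. The antisense RNA exceeded its sense gene in 30, 23 and 24 pairs in Caco-2 and in 22, 17 and 18 in HT-29, so that antisense RNA was the minor product at most but not all loci.

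None of the 3 members with the highest mean counts was called in any treatment comparison. OIP5-AS1, a conserved and widely expressed long non-coding RNA, had a mean count of 2302.33 and levels of 8.39, 8.05 and 8.13 RPKM in Caco-2 control, CoCl2 and OD, against 11.3, 11.1 and 18.9 for the HT-29 groups. Its log2 changes were -0.02, -0.01, 0.07 and 0.76, the last reaching an FDR of 4.16e-13 but not the fold limit. FGD5-AS1 was at 32, 27.7 and 32.2 RPKM for the Caco-2 groups, against 21.5, 16.7 and 21.5 for HT-29, with log2 changes between -0.27 and 0.04. PAX8-AS1 was at 7.58, 5.2 and 4.63 RPKM and 4.84, 5.66 and 6.59, with log2 changes of -0.51, -0.68, 0.32 and 0.47.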

How the data were processed

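Poly(A) RNA of the 18 mRNA libraries was sequenced as single-end reads. The table the authors deposited for mRNA holds raw counts per gene without normalization, and another holds log2 expression values (log2 of RPKM plus a pseudocount of 1) for the genes they kept in each line. The submitters' notes name STAR 2.7.5b, cutadapt 2.10, FastQC 0.11.9 and edgeR 3.30.3, among others, on GRCh38 with GENCODE 34. The counting tool and its strand setting are not given in the sources used here. Small RNA libraries were not used here.

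From the deposited counts, groups taken from the labels were compared with edgeR 4.0.16 (TMM, filterByExpr, glmQLFit and glmQLFTest, two-sided, Benjamini-Hochberg over all genes tested), within each line over its 9 libraries, and between lines over all 18. A call needs an FDR below 0.05 and a log2 fold change over 1 in size. The standard error is the log2 change divided by the root of F. CPM used TMM-scaled totals within each line. Counting intervals and floors (3 counts) cover counting error only. Annotation was GENCODE 44, a later release than the authors', on the same build. The members and lists were chosen with earlier results of these data known. Named genes were the 5 highest and 5 lowest called members without group overlap per treatment comparison (3 and 3 in the others, at a mean count of at least 20), all pairs called in opposite directions, members called alike in all 4 treatment comparisons, the 3 with most counts, those at the count limit, and members with a HIF1A-related or strongly changed sense gene (over 2 on the log2 scale). The fit was tested on simulated data with known changes. Alternatives were other scalings, DESeq2, no filter, no fold limit, a replicate block, leaving out each library, and limma on the deposited log2 values. Some items are not reported here.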

Additional observations from a re-analysis of the deposited data

Results flagged for a closer look

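For each member below the response to an agent differed between HT-29 and Caco-2 by the edgeR test of the difference itself (FDR below 0.05), given as the log2 change in HT-29 minus that in Caco-2. Negative values came from TMEM92-AS1 with CoCl2 (-3.66), LHFPL3-AS2 with CoCl2 (-3.38) and OD (-3.16), RGMB-AS1 with CoCl2 (-3.45), KRTAP5-AS1 with CoCl2 (-4.27), GATA2-AS1 with OD (-2.15) and HIF1A-AS3 with OD (-3.09). Positive values came from IGFL2-AS1 with CoCl2 (5.34), HECW2-AS1 (3.64) and ADORA2A-AS1 (3.20) with CoCl2, and RASSF8-AS1 (3.03), PROX1-AS1 (2.90) and CYMP-AS1 (4.67) with OD.

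Some of these rest on almost no reads in 1 line. CYMP-AS1 had 1 read in all 9 HT-29 libraries together, and without HT-29 OD replicate 2, which holds it, the difference was 2.12 (FDR 1). KRTAP5-AS1 had at most 0.212 CPM in any Caco-2 library and lost its call without Caco-2 CoCl2 replicate 2 (-3.85, FDR 0.0704). HECW2-AS1 and ADORA2A-AS1 were at most at 0.597 and 0.523 CPM in HT-29 and at 8 CPM or more in Caco-2, where CoCl2 lowered both (-1.91 and -1.43), and RASSF8-AS1 was at most at 0.266 CPM in HT-29. For HIF1A-AS3 the difference without HT-29 control replicate 3 was -2.47 (FDR 0.0517). HIF1A-AS3 and TMEM92-AS1 both sat at the count limit, so their differences are tied to the rule that chose them.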

How the results depend on the processing

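Of 132 alternative counts of called members, 112 stayed within 1.5 times the reported count. No fold change of a named gene reversed: of 7327 alternative values, 6908 kept their direction and their side of the threshold and 419 kept the direction only. Without the fold limit the called members numbered 169 (Caco-2 CoCl2), 136 (Caco-2 OD) and 157 (HT-29 OD), 105 and 194 for CoCl2 against OD in Caco-2 and HT-29, 95 for the line difference in the OD response and 203 between the control lines. In Caco-2 CoCl2 against OD these split into 32 higher and 73 lower, and limma with a pseudocount of 1 gave 1 and 3 there. Scaling by library size alone gave 166 for CoCl2 against OD in HT-29. On the deposited log2 values limma tested only the 197 and 175 members listed. With a pseudocount of 1 it called 19, 6, 31 and 9 in the 4 treatment comparisons (CoCl2 and OD in Caco-2, then in HT-29) and 4 and 16 for CoCl2 against OD, and with 0.1 it called 60, 35, 76, 19, 20 and 50. The pseudocount shrinks the log2 changes of low values, and fewer members were tested.

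Leaving out each library in turn gave 97 to 109, 54 to 61, 141 to 147 and 49 to 59 called members in the treatment comparisons, 41 to 52 and 108 to 110 for CoCl2 against OD, 82 to 93 and 52 to 64 for the line differences, and 126 to 131 between controls. Same-numbered libraries showed no shared deviation (r from -0.0554 to 0.0676), and differently numbered ones reached -0.0896 and 0.0961. With 3 libraries per group this check cannot settle whether the replicate numbers pair libraries. With a replicate block the counts were 101, 57, 142, 51, 48, 107, 90, 64 and 128, and the split between higher and lower calls moved by at most 2.0 percentage points. Few counts per member limit all these values: members below 100 counts make up 198 of 268.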
